A study of Mus musculus with 16 samples.

Results

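The 9 inhibitory receptor and exhaustion genes Pdcd1, Havcr2, Cd244a, Cd160, Btla, Lag3, Tigit, Entpd1 and Tox were followed in T and natural killer (NK) cells from mouse B16 melanomas. They were taken by symbol, as the 9 rows with these names among the 32285 genes of the count matrices, and the rule uses names only. Bro4.1 B16 cells were implanted under the skin of C57BL/6J mice, 1000000 cells per mouse, and the mice were injected intraperitoneally on days 6, 9 and 12 with 100 µg of anti-CD40 antibody or of the rat IgG2a isotype antibody. Tumours were taken on day 14, digested with collagenase and DNase, and enriched for CD45 on magnetic beads before single-cell RNA sequencing by the 10x 3′ v3 chemistry. The implanted cells were either control cells or lacked B2m, the light chain of MHC class I, per the design text, whereas the sample labels give this as the genotype of the mouse; the design text was followed. The 4 groups were control tumours under isotype (5 mice), control tumours under CD40 (2 mice), B2m-null tumours under isotype (5 mice) and B2m-null tumours under CD40 (4 mice). Per the design text all hosts were C57BL/6J mice bearing 1 transplantable line, and the sources used here do not give their age or sex. The mice of a group were pooled on lanes with hashtag antibodies. A mouse here is 1 hashtag row of a count file, of which 2 files held 3 and the other 6 held 2, whereas the labels name 3 hashtags for every pool, so each n counts hashtags, and whether each stood for 1 mouse was not tested. The the control CD40 mice came from 1 pool on 2 lanes, so that its mice and its pool cannot be told apart.

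Inhibitory receptors are induced on T cells by antigen receptor stimulation and damp signalling, and their lasting joint expression marks the dysfunctional state called exhaustion, which is common among CD8 T cells in tumours. Pdcd1 encodes PD-1, which recruits phosphatases against the antigen receptor and CD28. Havcr2 encodes TIM-3, Cd244a the SLAM-family receptor 2B4 that binds CD48, Cd160 and Btla receptors for HVEM, Lag3 a CD4-like receptor for MHC class II, and Tigit a receptor for CD155. Entpd1 encodes CD39, an ectoenzyme that degrades extracellular ATP, and Tox encodes a nuclear factor required for the exhaustion programme. NK cells use 2B4 and CD160 as well, and several of these genes are also active in myeloid cells.

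In mm10 coordinates of the GENCODE vM21 annotation, the members lay on 7 chromosomes. Pdcd1 (ENSMUSG00000026285) spans chr1:94038305-94052553 on the minus strand and Cd244a chr1:171559193-171609746 on the plus strand. Havcr2 spans chr11:46454935-46481255 (plus), Cd160 chr3:96798763-96829351 (minus), Lag3 chr6:124904361-124911705 (minus) and Tox chr4:6686353-6991557 (minus). Tigit spans chr16:43648867-43664146 (minus), Btla chr16:45224315-45257670 (plus) and Entpd1 chr19:40612366-40741602 (plus). RefSeq start sites of GRCm38.p6 were matched for 7 of the 9 members, all but Lag3 and Tox. The 250 bases upstream are printed for the 3 members that passed the test in CD8 T cells in both tumour genotypes, at chr1:94052554-94052803 (minus strand) for Pdcd1, chr11:46454681-46454930 (plus) for Havcr2 and chr1:171558943-171559192 (plus) for Cd244a. Each runs 5′ to 3′ on the gene's strand and ends at the base before the start site, and capitals mark a match to the AP-1 motif TGANTCA.
Pdcd1: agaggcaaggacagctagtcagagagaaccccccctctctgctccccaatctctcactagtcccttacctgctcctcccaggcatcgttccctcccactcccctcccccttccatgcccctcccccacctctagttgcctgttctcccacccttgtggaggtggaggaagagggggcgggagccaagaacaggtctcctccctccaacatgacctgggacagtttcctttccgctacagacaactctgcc
Havcr2: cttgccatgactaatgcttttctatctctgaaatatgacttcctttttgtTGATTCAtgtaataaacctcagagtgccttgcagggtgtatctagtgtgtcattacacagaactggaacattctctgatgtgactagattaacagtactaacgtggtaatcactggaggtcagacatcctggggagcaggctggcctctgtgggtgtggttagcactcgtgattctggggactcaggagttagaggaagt
Cd244a: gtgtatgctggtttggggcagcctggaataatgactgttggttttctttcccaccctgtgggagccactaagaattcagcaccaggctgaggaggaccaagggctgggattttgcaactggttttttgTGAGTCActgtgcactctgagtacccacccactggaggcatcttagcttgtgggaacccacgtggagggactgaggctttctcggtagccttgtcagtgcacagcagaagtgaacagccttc
The AP-1 motif and the NFAT core TGGAAA were searched on both strands, because both factor families act downstream of the antigen receptor, and no 2 matches overlapped. Havcr2 held TGANTCA with its first base at -200 from the start site and Cd244a at -122. Pdcd1, Cd160, Tigit, Btla and Entpd1 held neither motif in their windows. Over 32851 promoters of the same length, 6.749% held TGANTCA and 18.58% held TGGAAA, and the matches are descriptions of these letters only.

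The 8 lanes held 541.1 M UMIs (M, 1000000; unique molecular identifiers, each counting 1 captured transcript), 45.986 to 99.265 M per lane, and 91159 of 116552 barcodes were kept, 74213 of them assigned to 1 of 16 mice. The lane B2m-null isotype replicate 1 stood apart in its hashtags, with 26.6% of barcodes assigned against 60.1 to 90.6% in the others. Any pair of lanes shared 41 to 92 barcode sequences. In the melanoma gate B2m stood at 899 to 1941 CPM (counts per 1000000 UMIs) in the 4 control lanes and 164 to 469 CPM in the 4 B2m-null lanes, whereas the macrophage gate held 2818 to 5909 CPM in every lane. Cells were gated on transcripts: 11035 barcodes with Cd3 and Cd8a and without Cd4 or Foxp3 formed the CD8 T gate, 1314 with Cd3 and Cd4 the CD4 T gate, 537 with Cd3 and Foxp3 the regulatory T gate, and 1319 with Ncr1 and no Cd3 the NK gate. The defining genes were present: Cd8b1, which the gate did not use, stood at 473.6 CPM in the CD8 T gate, Cd40lg at 37.7 CPM in the CD4 T gate, Il2ra at 398.6 CPM in the regulatory T gate and Klre1 at 609.8 CPM in the NK gate. The macrophage transcript C1qa stood at 70.1 to 74.9 CPM in all 4 gates. Tests used 15 mice in the CD8 T gate and 13 in the CD4 T gate, each with at least 20 gated cells. The other gates gave 13 mice for NK and 9 for regulatory T, none of the latter in control CD40.

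Transcripts of dendritic cells moved with treatment in every gate. Of CD8 T gate barcodes, 31.6% held a UMI of 1 of 11 dendritic markers (Xcr1, Clec9a, Fscn1, Cd209a and others) in control isotype and 14.8% in control CD40, against 38.3% and 14.5% in B2m-null isotype and B2m-null CD40. In the CD4 T gate the shares were 45.6, 14.7, 53.0 and 13.6% in that order, in the NK gate 19.5, 7.45, 24.3 and 11.7%, and in the regulatory T gate 46.4, 7.41, 55.2 and 22.4%. The 7.41% was 2 of 27 barcodes. Summed over the 4 cDC1 markers, CD8 T cells held 166 to 341 CPM per mouse in control isotype and 68.2 to 69.7 CPM in control CD40, and 177 to 889 against 37.1 to 73.2 CPM in B2m-null tumours. Macrophage markers, among them C1qa, C1qb and C1qc, whose UMIs the gate limited, summed to 456 to 590.0, 309 to 668, 429 to 635 and 224 to 558 CPM in the 4 groups in that order. Other markers had higher group sums under CD40. In the CD8 T gate the 4 neutrophil markers summed to 15.2, 163, 45.0 and 180.1 CPM over the groups in that order. The 4 B cell markers summed to 6.00, 33.4, 19.9 and 29.4 CPM and the 4 monocyte markers to 379, 588, 622 and 724 CPM. S100a8, S100a9, Cd79a and Cd79b were called higher in control tumours. For B cell markers the median B2m-null mouse had a sum of 27.8 CPM under isotype and 27.3 CPM under CD40. Of the monocyte markers Ly6c2 alone was called, rising from 225 to 425 CPM in control and from 193.5 to 474 CPM in B2m-null tumours. Whether the other monocyte markers rose cannot be read from their sum. The 4 type 1 innate lymphoid markers summed to 181 to 245, 451 to 460.3, 321 to 535 and 399 to 605 CPM per mouse in that order, without overlap in control tumours, where Rora and Gpr183 were called higher. Their group sums were 607 to 869 CPM in the CD4 T gate and 209 to 289 CPM in the NK gate. The sum thus does not tell innate lymphoid cells from T cells. The 4 CD8 T markers, 3 of them used by the gate, summed to 1783 to 2137, 2721 to 2796, 1135 to 1865 and 2011 to 3647 CPM, without overlap in either genotype. Melanoma markers in CD8 T cells summed to 13.8 to 209, 24.6 to 707, 13.5 to 34.4 and 108 to 584 CPM per mouse in the same order. The median CD8 T barcode held 5013, 2232, 4165 and 2757 UMIs. The shares with a dendritic marker UMI were counted without thinning to 1 depth, and the part of depth in them was not tested. No cDC1, cDC2 or mature dendritic marker was at 0 in the CD8 T gate of any group. The part of these transcripts in the results below was not tested, except that each fit was repeated without the barcodes that held a dendritic marker UMI, an alternative chosen after the data had been seen.

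In CD8 T cells, Pdcd1, Havcr2 and Cd244a fell under CD40 antibody in both control and B2m-null tumours, to between 0.380 and 0.637 of the isotype level. Cd160 rose to 2.5 times the isotype level in B2m-null tumours and did not pass the test in control tumours. Lag3 and Tox differed by under 0.11 on the log2 scale in either genotype, and Entpd1 and Btla did not pass the test. Of the 9 members 8 passed the filter on low counts in this gate, all but Tigit. In control tumours 3 of these 8 were called, all lower, while 24.1% of 10730 genes tested were called (12.7% higher and 11.4% lower). In B2m-null tumours 4 of 8 were called, 3 lower and 1 higher, against 10.0% of all genes (5.48% higher and 4.52% lower). None of the 3 lower calls was made in limma-voom with a pool correlation (adjusted p = 0.108, 0.0514 and 0.105). The median log2 change over the 8 members was -0.56 and -0.62 in the 2 genotypes, against 0.03 and 0.04 over all genes tested. A gene was called at a Benjamini-Hochberg adjusted p under 0.05 in edgeR's quasi-likelihood test over all genes of the gate, with the mouse as the unit.

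**Figure D1:**
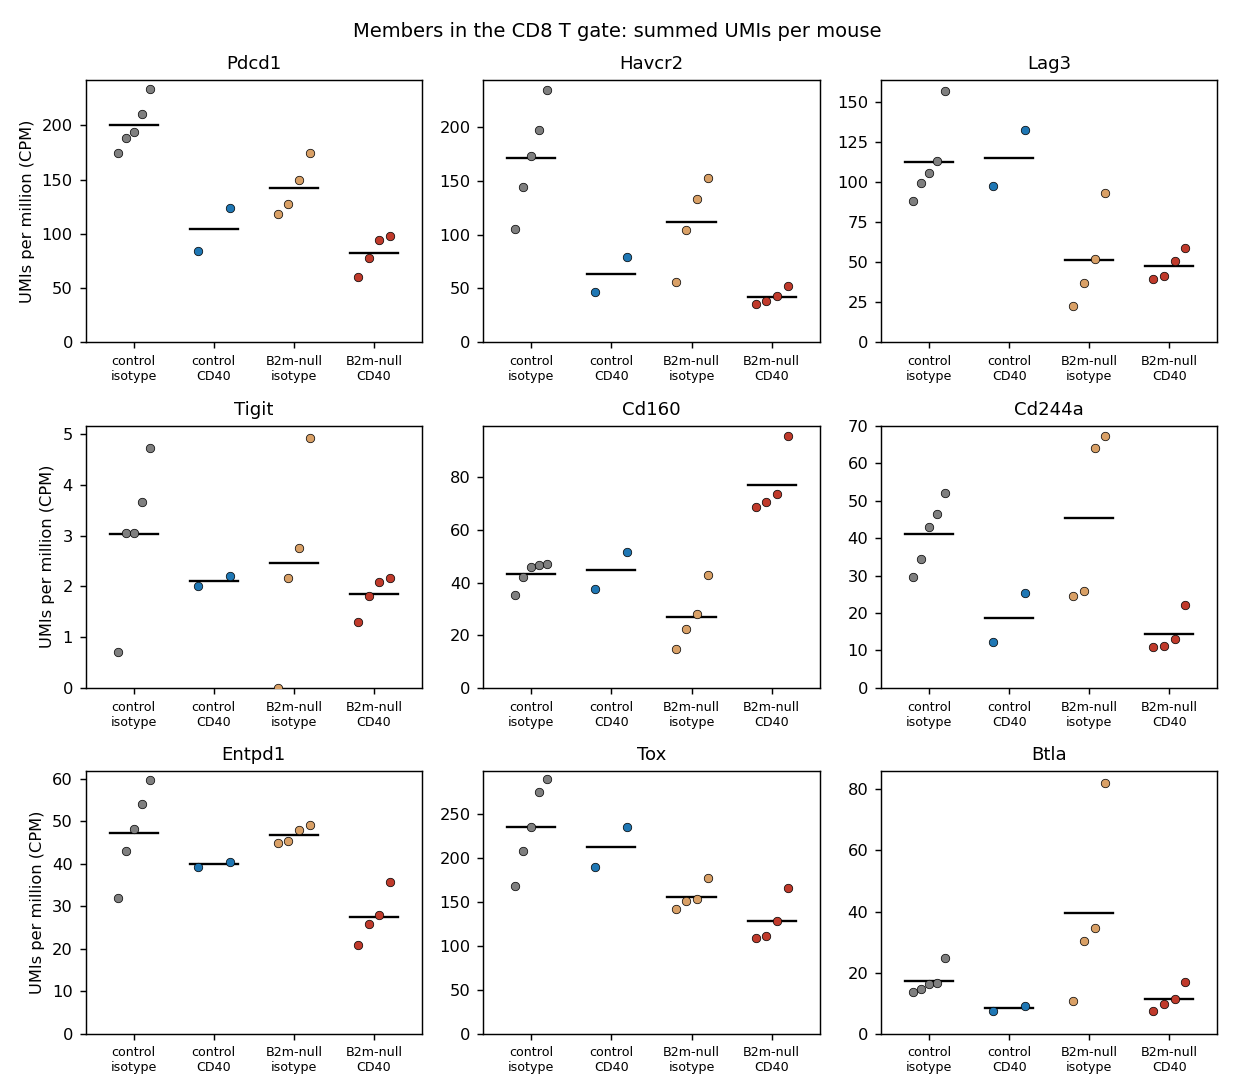
Level of each of the 9 members in CD8 T gate cells, in counts per 1000000 UMIs (CPM, linear axis from 0), for the 4 groups; each dot is 1 mouse and each line the group mean. For Pdcd1, all control isotype mice sit between 174 and 233 CPM, above both control CD40 mice.

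The PD-1 gene Pdcd1 stood at 211, 174, 188, 233 and 194 CPM in the 5 control isotype mice and at 124 and 84.1 CPM in the 2 control CD40 mice. In B2m-null tumours it stood at 118, 149, 174 and 127 CPM under isotype and 60.1, 94.1, 98.2 and 77.8 CPM under CD40. Every CD40 mouse lay below every isotype mouse of its genotype. Group means were 200.2 ± 22.6 CPM (SD, n = 5) against 104 ± 28.0 CPM (SD, n = 2) in control tumours, a decrease beyond the spread between mice (log2 change -0.89, SE 0.204, edgeR adjusted p = 0.00385). In B2m-null tumours they were 142 ± 25.0 CPM (SD, n = 4) against 82.6 ± 17.4 CPM (SD, n = 4) (log2 change -0.65, SE 0.187, edgeR adjusted p = 0.0317). Without barcodes holding a dendritic marker UMI the log2 changes were -1.09 and -1.03, with edgeR adjusted p = 1.85e-04 and 0.00314. In control tumours the call was lost with the pool as the unit (-1.15, edgeR adjusted p = 0.0707) and without mouse 2 of control CD40 (-0.60, 0.169), which leaves 1 mouse in that arm, assumed to vary like the other groups. In B2m-null tumours it was lost with the pool as the unit (-0.59, edgeR adjusted p = 0.265), in limma-voom with a pool correlation (-0.70, 0.108), with mice of at least 50 cells (-0.65, 0.0613), without the limit on myeloid UMIs (-0.62, 0.0739) and in 11 of 23 fits that left out a lane or a mouse. Those were the fits without the lane control isotype replicate 1 (-0.64, 0.0748), the lane control isotype replicate 2 (-0.62, 0.059), the lane B2m-null isotype replicate 1 (-0.76, 0.0564), the lane B2m-null isotype replicate 2 (-0.44, 0.397), the lane B2m-null CD40 replicate 1 (-0.53, 0.0607), the lane B2m-null CD40 replicate 2 (-0.81, 0.0526), mouse 1 of B2m-null CD40 pool 1 (-0.53, 0.061), mouse 2 of B2m-null CD40 pool 2 (-0.63, 0.0852), mouse 3 of B2m-null isotype pool 1 (-0.65, 0.0613), mouse 1 of B2m-null isotype pool 2 (-0.44, 0.215) and mouse 2 of B2m-null isotype pool 2 (-0.68, 0.0567), each with its log2 change and edgeR adjusted p.

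The TIM-3 gene Havcr2 had the largest decrease of the tested members in control tumours. It stood at 145, 105, 173, 234 and 197 CPM in control isotype mice and 79.5 and 46.7 CPM in control CD40 mice. In B2m-null tumours the isotype mice had 153, 105, 133 and 56.1 CPM and the CD40 mice 37.9, 52.0, 35.2 and 43.1 CPM. The groups did not overlap in either genotype, although the lowest B2m-null isotype mouse, at 56.1 CPM, lay close to the highest CD40 mouse at 52.0 CPM. The mean fell from 171 ± 49.2 CPM (SD, n = 5) to 63.1 ± 23.2 CPM (SD, n = 2) in control tumours (log2 change -1.40, SE 0.319, edgeR adjusted p = 0.00572). The B2m-null mean fell from 111 ± 41.8 CPM (SD, n = 4) to 42.0 ± 7.40 CPM (SD, n = 4) (log2 change -1.25, SE 0.299, edgeR adjusted p = 0.016). Havcr2 was also present in the cDC1 gate, at a median of 61.1 CPM over lanes, and without barcodes holding a dendritic marker UMI its log2 changes in CD8 T cells were -1.61 and -1.43 (edgeR adjusted p = 1.73e-04 and 0.00659). The control call was lost without mouse 2 of control CD40 (-1.01, 0.133), as log2 change and edgeR adjusted p. The B2m-null call was lost in limma-voom with a pool correlation (-1.32, adjusted p = 0.0514) and without the lane B2m-null isotype replicate 1 (-1.17, 0.0834), the lane B2m-null CD40 replicate 2 (-1.19, 0.181), mouse 1 of B2m-null CD40 pool 2 (-1.18, 0.0609) and mouse 1 of B2m-null isotype pool 2 (-1.01, 0.103).

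Cd244a, which encodes the CD48 receptor 2B4, stood at 43.0, 29.5, 34.4, 52.0 and 46.4 CPM in control isotype and 25.4 and 12.2 CPM in control CD40. B2m-null isotype mice had 64.0, 67.2, 24.5 and 25.9 CPM and B2m-null CD40 mice 22.2, 13.1, 10.8 and 11.2 CPM. CD40 mice were lower than isotype mice without overlap in both genotypes, and the B2m-null isotype mice split into 2 near 65 CPM and 2 near 25 CPM, one pair from each pool. The decrease passed the test in control tumours (log2 change -1.15, SE 0.326, edgeR adjusted p = 0.0164) and in B2m-null tumours (log2 change -1.25, SE 0.363, edgeR adjusted p = 0.0355). Without barcodes holding a dendritic marker UMI the control value was -1.44 (edgeR adjusted p = 0.00102), whereas the B2m-null value was -0.79 and no longer called (0.284). The control call was lost with the pool as the unit (-1.52, 0.0858) and without the lane control isotype replicate 1 (-1.37, 0.0577), the lane control isotype replicate 2 (-0.97, 0.0767) and mouse 2 of control CD40 (-0.62, 0.322). In B2m-null tumours it was lost under stricter gates (-0.86, 0.197), with myeloid UMIs at most 0.2% (-1.01, 0.123), with mice of at least 50 cells (-1.09, 0.08), in limma-voom with a pool correlation (-1.09, 0.105), with the pool as the unit (-1.30, 0.161) and without the lane control isotype replicate 1 (-1.26, 0.0591), the lane B2m-null isotype replicate 1 (-0.83, 0.196), the lane B2m-null CD40 replicate 2 (-0.98, 0.312), mouse 2 of B2m-null CD40 pool 1 (-1.23, 0.0575), mouse 1 of B2m-null CD40 pool 2 (-1.15, 0.109), mouse 2 of B2m-null CD40 pool 2 (-1.20, 0.0927), mouse 1 of B2m-null isotype pool 1 (-1.05, 0.0948), mouse 3 of B2m-null isotype pool 1 (-1.09, 0.08) and mouse 2 of B2m-null isotype pool 2 (-1.35, 0.0529), each as log2 change and edgeR adjusted p. The decrease was largest without mouse 1 of control CD40 in control tumours (-1.75, edgeR adjusted p = 0.00545) and without the lane B2m-null isotype replicate 2 in B2m-null tumours (-2.14, 0.0106).

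Cd160 was the 1 member that rose in CD8 T cells. It stood at 14.8, 22.4, 42.8 and 28.1 CPM in B2m-null isotype mice and 70.6, 68.7, 73.5 and 95.5 CPM in B2m-null CD40 mice, and the groups did not overlap. The increase, from 27.02 ± 11.9 CPM (SD, n = 4) to 77.1 ± 12.5 CPM (SD, n = 4), passed the test (log2 change 1.32, SE 0.228, edgeR adjusted p = 0.0012) and stayed past the threshold in all 23 fits that left out a lane or a mouse, where its log2 change ranged from 1.05 to 2.32, the highest without the lane B2m-null isotype replicate 2 (edgeR adjusted p = 0.00336). Among the other alternatives run, it was lost only with the pool as the unit (1.29, edgeR adjusted p = 0.101, or 1.38 and 0.0560 when cells lacking a hashtag were added). In control tumours Cd160 stood at 45.7, 47.2, 46.6, 35.2 and 42.1 CPM under isotype and 51.6 and 37.6 CPM under CD40, with overlapping values (log2 change 0.10, SE 0.213, edgeR adjusted p = 0.789, 95% interval -0.32 to 0.51).

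The other HVEM receptor gene, Btla, went the opposite way in its means without passing the test. It stood at 13.5, 24.8, 16.5, 16.3 and 14.6 CPM in control isotype and 9.11 and 7.51 CPM in control CD40 mice (log2 change -0.96, SE 0.422, edgeR adjusted p = 0.105). In B2m-null tumours it stood at 34.4, 82.1, 10.7 and 30.2 CPM under isotype, where 1 mouse was at least 2 times as high as the other 3, and at 17.0, 11.3, 9.75 and 7.44 CPM under CD40 (log2 change -1.19, SE 0.446, edgeR adjusted p = 0.0998). Btla was highest of all gates in cDC1, at a median of 161 CPM over lanes. Without barcodes holding a dendritic marker UMI, its log2 change in CD8 T cells was 0.22 in control and 0.28 in B2m-null tumours, with the sign reversed. In control tumours Btla was called lower in limma-voom (-0.96, adjusted p = 0.0386), in edgeR without the filter on low counts (-0.95, 0.0304), with myeloid UMIs at most 0.2% (-0.99, 0.0355) and under stricter gates (-1.06, 0.0182). In B2m-null tumours it was called lower in DESeq2 (-1.44, adjusted p = 0.024) and in edgeR without that filter (-1.16, 0.0148).

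Lag3, whose product binds MHC class II, and Tox, the exhaustion factor, did not pass the test between treatments in either genotype. Lag3 stood at 106, 88.4, 99.6, 157 and 113 CPM in control isotype, 133 and 97.7 CPM in control CD40, 93.5, 22.4, 51.8 and 36.7 CPM in B2m-null isotype and 39.2, 41.1, 58.8 and 50.9 CPM in B2m-null CD40. The CD40 values lay within the isotype range in both genotypes (log2 change 0.07, SE 0.251, edgeR adjusted p = 0.87, 95% interval -0.42 to 0.57 in control; log2 change 0.09, SE 0.277, edgeR adjusted p = 0.929, interval -0.46 to 0.63 in B2m-null), and the sign of both values depended on the setting. Tox stood at 275, 208, 168, 289 and 236 CPM in control isotype, 189.8 and 235 CPM in control CD40, 177, 142, 153 and 151 CPM in B2m-null isotype and 109, 111, 165 and 128 CPM in B2m-null CD40. Its treatment groups overlapped in both genotypes (log2 change -0.10, SE 0.197, edgeR adjusted p = 0.767, 95% interval -0.48 to 0.29 in control; log2 change -0.11, SE 0.189, edgeR adjusted p = 0.82, interval -0.48 to 0.26 in B2m-null). A change of 2 times in either direction lies outside these 4 intervals.

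The CD39 gene Entpd1 stood at 48.1, 31.8, 43.0, 54.0 and 59.8 CPM in control isotype and 39.2 and 40.5 CPM in control CD40, within the isotype range (log2 change -0.22, SE 0.184, edgeR adjusted p = 0.42). In B2m-null tumours all 4 CD40 mice, at 20.9, 35.6, 28.0 and 25.7 CPM, lay below all 4 isotype mice, at 49.2, 44.8, 48.0 and 45.3 CPM, and the difference just missed the threshold (log2 change -0.59, SE 0.198, edgeR adjusted p = 0.063). It passed without the lane B2m-null CD40 replicate 1 (-0.60, 0.0436) and mouse 2 of B2m-null CD40 pool 1 (-0.71, 0.0305), as log2 change and edgeR adjusted p. Tigit was near the counting limit, with 32 and 26 UMIs in control CD40 and control isotype and 25 and 10 in B2m-null CD40 and B2m-null isotype. Its level was at most 4.92 CPM in any mouse, and it was not tested.

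**Figure D2:**
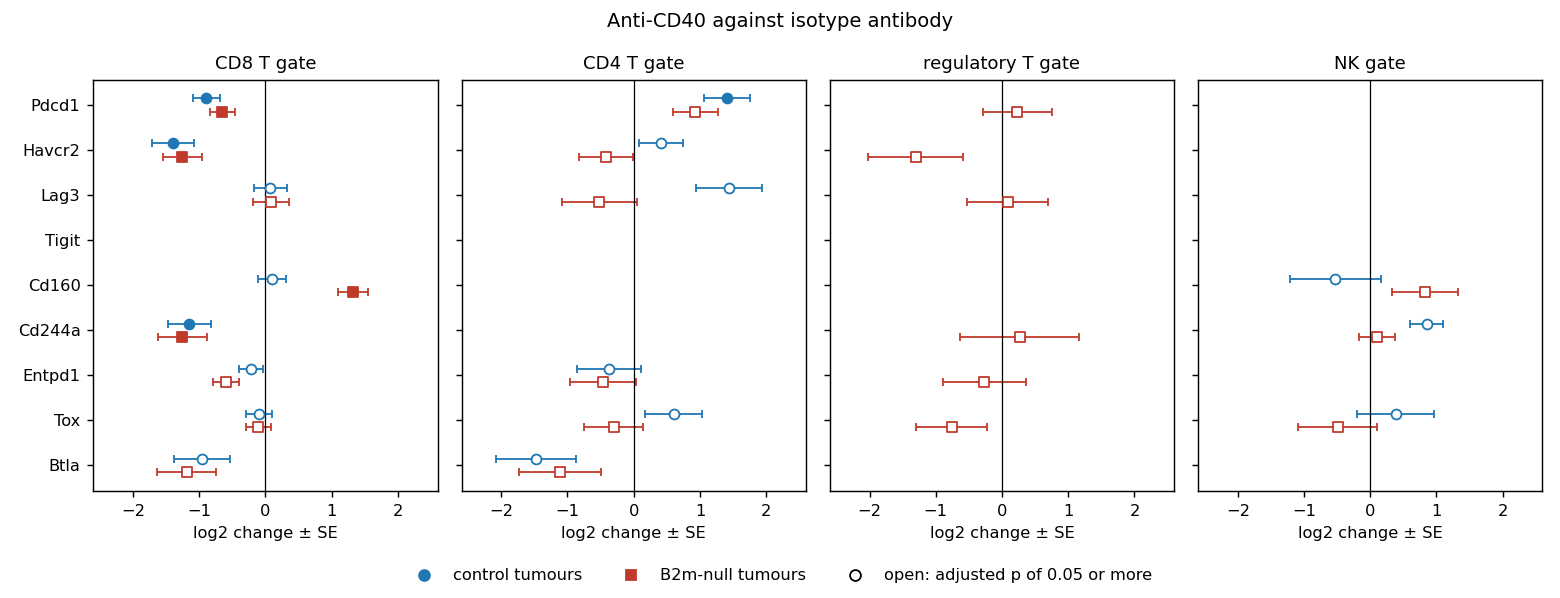
Change of each member under CD40 antibody against isotype, as log2 change ± SE from edgeR, in 4 panels for the CD8 T, CD4 T, regulatory T and NK gates; blue circles are control and red squares B2m-null tumours, and filled symbols have an adjusted p under 0.05. In the CD8 T panel Pdcd1, Havcr2 and Cd244a are filled below 0 in both genotypes and Cd160 is filled above 0 in B2m-null tumours.

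Tumour genotype was compared within each treatment, which asks whether CD8 T cells carry other receptor levels where the implanted melanoma cells lack B2m. Under isotype 0 of 8 members were called, against 0.186% of all genes. An unadjusted p under 0.05 in edgeR was reached by 4 of the 8 (Pdcd1, Havcr2, Lag3 and Tox, each lower in B2m-null tumours in its mean), and by 1502 of 10730 genes tested. DESeq2 called 1 member and limma-voom 0, each with an unadjusted p under 0.05 for 5 and 4 members. Lag3 came closest, at 51.1 ± 30.7 CPM (SD, n = 4) in B2m-null and 113 ± 26.5 CPM (SD, n = 5) in control tumours (log2 change -1.19, SE 0.265, edgeR adjusted p = 0.0637), and 3 of the 4 B2m-null mice lay below all 5 control mice. Its adjusted p was 0.00155 in DESeq2, 2.13e-07 in edgeR without the filter on low counts and 0.0111 with the replicate number as a block, and it was also called without the lane B2m-null CD40 replicate 1 (-1.20, 0.0315), the lane B2m-null CD40 replicate 2 (-1.19, 0.0301) and mouse 1 of B2m-null CD40 pool 2 (-1.19, 0.0462).

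Under CD40, 2 of 8 members were called between genotypes, 1 in each direction, against 3.01% of all genes (1.75% higher and 1.26% lower). Lag3 was lower in all 4 B2m-null mice than in both control mice (47.5 ± 9.13 CPM (SD, n = 4) against 115 ± 24.7 CPM (SD, n = 2); log2 change -1.18, SE 0.258, edgeR adjusted p = 0.0233). Cd160 was higher in all 4 B2m-null mice (77.1 ± 12.5 CPM (SD, n = 4) against 44.6 ± 9.92 CPM (SD, n = 2); log2 change 0.86, SE 0.220, edgeR adjusted p = 0.0381). Tox did not overlap between the genotypes and had an edgeR adjusted p = 0.0821. DESeq2 and limma-voom each called 3 of 8, these 2 genes and Tox (-0.64, adjusted p = 0.0489; -0.66, 0.0394). These comparisons share their CD40 mice with the treatment comparisons, and the control arm is 2 mice of 1 pool. With the pool as the unit neither gene was called (edgeR adjusted p = 0.684 for both), and Cd160 was not called without the limit on myeloid UMIs (0.81, 0.105). The Lag3 call was also lost without the lane control isotype replicate 1 (-1.18, 0.0593), mouse 2 of B2m-null CD40 pool 2 (-1.20, 0.0644), mouse 1 of control CD40 (-0.91, 0.24) and mouse 2 of control CD40 (-1.42, 0.079), and the Cd160 call without the lane control isotype replicate 1 (0.86, 0.109), the lane control isotype replicate 2 (0.89, 0.0623), the lane control CD40 replicate 2 (0.80, 0.0619), the lane B2m-null CD40 replicate 2 (0.66, 0.083), mouse 2 of B2m-null CD40 pool 2 (0.74, 0.115), mouse 1 of control CD40 (1.14, 0.127), mouse 2 of control CD40 (0.60, 0.511), mouse 2 of control isotype pool 1 (0.89, 0.0527), mouse 3 of control isotype pool 1 (0.86, 0.0582) and mouse 2 of control isotype pool 2 (0.86, 0.0585), each as log2 change and edgeR adjusted p.

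The change under CD40 itself differed between the genotypes for Cd160 alone among the 8 tested members, against 5.04% of all genes called. The difference of its CD40 effects was 1.23 on the log2 scale (SE 0.316, edgeR adjusted p = 0.0284), larger in B2m-null tumours. For the other 7 members the adjusted p was between 0.464 and 0.997, so no difference between genotypes was detected in the decreases of Pdcd1, Havcr2 and Cd244a; their 95% intervals were -0.29 to 0.78, -0.69 to 0.97 and -1.04 to 0.83 on the log2 scale. The Cd160 difference was lost under stricter gates (1.03, edgeR adjusted p = 0.119), in limma-voom with a pool correlation (1.14, 0.114), without the limit on myeloid UMIs (1.21, 0.0695) and with the pool as the unit (1.34, 0.536). It was also lost without the lane control isotype replicate 1 (1.07, 0.232), the lane B2m-null isotype replicate 1 (1.04, 0.0775), mouse 2 of B2m-null CD40 pool 2 (1.10, 0.0591), mouse 2 of B2m-null isotype pool 2 (1.20, 0.0601), mouse 2 of control CD40 (0.98, 0.219) and mouse 3 of control isotype pool 1 (1.20, 0.0581). Without barcodes holding a dendritic marker UMI it was 1.29 (edgeR adjusted p = 0.0257), and it was largest without the lane B2m-null isotype replicate 2 (2.22, 0.0107) and mouse 1 of B2m-null isotype pool 2 (1.83, 0.00503).

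Cell by cell, the share of CD8 T cells with a Pdcd1 or Havcr2 transcript was lower under CD40 in its median. Every cell was thinned at random to 1500 UMIs, which left 1293 of 1422 cells in control isotype, 3368 of 4794 in control CD40, 486 of 529 in B2m-null isotype and 2763 of 3285 in B2m-null CD40. Over mice, the lowest, median and highest share with Pdcd1 was 16.9, 27.9 and 28.3% in control isotype, and the 2 control CD40 mice had 12.2 and 14.6%. It was 11.6, 18.7 and 27.3% in B2m-null isotype and 9.03, 12.0 and 12.9% in B2m-null CD40. Both control CD40 mice lay below all control isotype mice, whereas the B2m-null groups overlapped by their lowest isotype mouse. Thinned to 2500 UMIs, which left 1107 cells in control isotype and 2132 in control CD40, the control groups overlapped too, at 20.2 to 42.3% against 18.8 and 24.9%. Before thinning, the shares ranged over 45.1 to 59.6, 19.8 to 23.6, 29.4 to 52.1 and 21.4 to 26.97% in that order. In the macrophage gate, whose cells should lack Pdcd1, the median lane had 0.075% after thinning to 1500 UMIs. Its median depths before thinning were 2637 to 6360.5 UMIs.

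Havcr2 was found in 12.9, 21.7 and 28.1% of thinned cells in control isotype (lowest, median and highest mouse), 6.25 and 12.0% in control CD40, 9.38, 12.6 and 16.4% in B2m-null isotype and 4.73, 6.61 and 7.37% in B2m-null CD40, with no overlap between treatments at this depth. At 2500 UMIs the control groups overlapped (15.4 to 43.1% against 9.96 and 19.8%) and the B2m-null groups did not (14.6 to 41.9% against 7.56 to 12.99%). The macrophage gate had 3.85% with Havcr2 in the median lane, a myeloid type that is known to carry this gene, and the lowest CD40 mice lie near that level. Cd160 was found in 3.12, 5.47 and 9.09% in B2m-null isotype and 8.33, 10.3 and 13.2% in B2m-null CD40, with 0.035% in macrophages, and these groups overlapped. Tox was found in 23.8, 33.5 and 35.6%, 24.3 and 30.6%, 13.6, 19.5 and 24.6% and 13.2, 16.2 and 21.1% of cells in the 4 groups in the order used above, and 0.14% of macrophages. Lag3 was found in 14.5, 16.8 and 19.7%, 13.0 and 14.5%, 0, 7.66 and 18.6% and 4.50, 6.09 and 8.46%, and in 0.18% of macrophages. For both genes the treatments overlapped in B2m-null tumours, and for Tox in control tumours too. For Lag3 in control tumours, the higher CD40 mouse and the lowest isotype mouse were both at 14.5% as rounded. These shares were not tested.

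The share of cells with several members at once was lower under CD40 in its median at 1500 UMIs and at 2500 UMIs, a description that was not tested. At 1500 UMIs, 21.8, 38.3 and 39.7% of CD8 T cells held at least 2 members in control isotype (lowest, median and highest mouse), against 17.1 and 21.5% in the 2 control CD40 mice. In B2m-null tumours the values were 15.6, 22.2 and 31.8% under isotype and 7.64, 11.3 and 13.2% under CD40. At this depth no CD40 mouse reached the lowest isotype mouse of its genotype. At 2500 UMIs the treatments overlapped in both genotypes, with 32.7, 57.2 and 67.2% against 32.8 and 43.3% in control and 18.8, 41.6 and 48.4% against 21.8, 25.1 and 25.7% in B2m-null tumours, where 3 isotype mice remained. At 1500 UMIs, at least 3 members were held by 4.03, 11.9 and 14.6% of cells in control isotype (lowest, median and highest mouse). The control CD40 mice had 3.88 and 5.23%. In B2m-null tumours the values were 0, 6.61 and 7.65% under isotype and 0.694, 1.58 and 1.94% under CD40. For at least 3 members the treatments thus overlapped in both genotypes. Cells without any member made up 24.7, 29.2 and 36.3% in control isotype and 43.2 and 44.6% in control CD40, and 39.5, 46.8 and 57.8% against 50.9, 53.2 and 58.3% in B2m-null tumours, where the treatments overlapped.

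**Figure D3:**
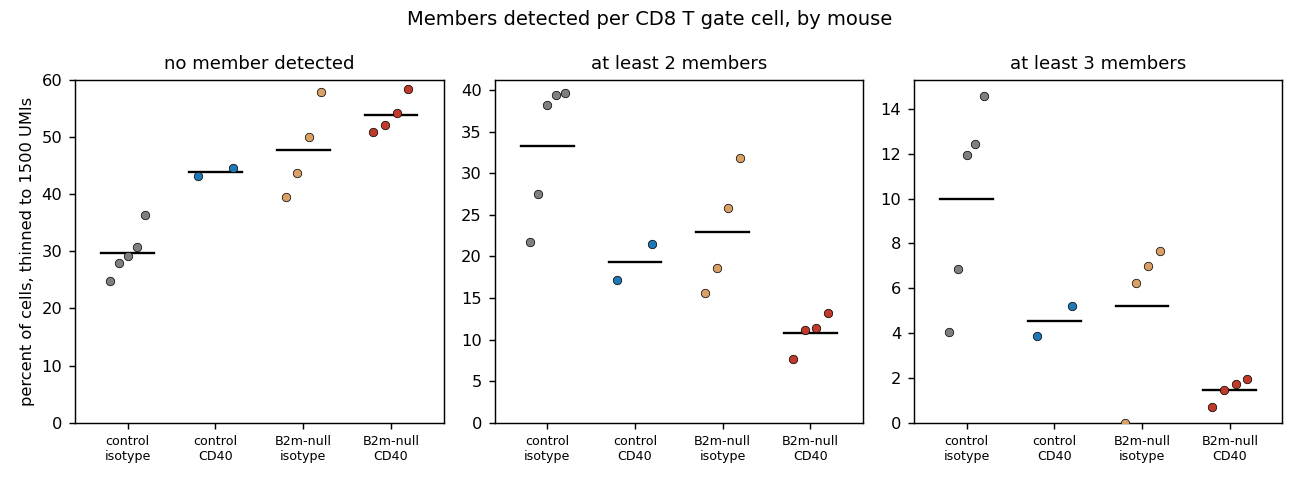
Percent of CD8 T gate cells, thinned to 1500 UMIs each, with no member, at least 2 members and at least 3 members detected, for the 4 groups; each dot is 1 mouse and each line the group mean. The control isotype median for at least 2 members, 38.3%, lies above both control CD40 mice, and in that panel the B2m-null CD40 mice hold the lowest values.

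Pdcd1 and Havcr2 were found in the same thinned cell in a median of 7.94% of cells in control isotype, where the product of their 2 shares was 5.76%. There the mice ranged from 1.61 to 10.2% (product 2.19 to 7.92%). The medians were 1.68% (product 1.26%) in control CD40, 6.32% (2.54%) in B2m-null isotype and 1.28% (0.675%) in B2m-null CD40. Among cells with Pdcd1, the median share with Havcr2 was 32.3% against 17.9% of the other cells in control isotype, and 35.4% against 5.80% in B2m-null isotype. Under CD40 it was 12.4% against 8.64% in control and 10.0% against 6.35% in B2m-null tumours. Tcf7, the progenitor T cell factor, chosen for this contrast after its values were seen, was found in 1.54% of Pdcd1-positive and 7.41% of other cells in control isotype and in 11.8% and 17.5% in control CD40. In B2m-null tumours it was found in 0% and 12.2% under isotype and in 3.94% and 15.2% under CD40. These are medians over mice, and cells of 1 mouse share its lane and depth. For Pdcd1-positive cells of B2m-null isotype the mice ranged from 0 to 6.82% with Tcf7 and from 22.7 to 60.0% with Havcr2. Of the 529 CD8 T cells of that group before thinning, 1 mouse held 380. Its medians thus rest largely on mice with few Pdcd1-positive cells. Before thinning the Tcf7 medians in that group were 13.2% of Pdcd1-positive and 27.3% of other cells.

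Further genes of the same biology were read from 5 lists in the CD8 T fits, to be read against the 24.1% of all genes called in control (12.7% higher, 11.4% lower) and 10.0% in B2m-null tumours (5.48% higher, 4.52% lower). Among 14 tested other inhibitory receptors, 4 rose and 1 fell in control tumours (median log2 change 0.44) and 3 rose and 1 fell in B2m-null tumours (0.49). Cd200r1, an inhibitory receptor for CD200, fell in both (-1.80, 9.02 against 32.5 CPM, edgeR adjusted p = 4.84e-04 in control; -2.35, 7.35 against 42.2 CPM, 1.42e-04 in B2m-null). In control tumours Cd38, an ectoenzyme often counted among exhaustion markers, rose from 31.3 to 73.4 CPM (1.29, 1.66e-04), Vsir, the gene of the checkpoint VISTA, from 58.1 to 123 CPM (1.14, 4.24e-04) and the SLAM receptor gene Cd84 from 56.8 to 102 CPM (0.90, 4.25e-04). With the pool as the unit Cd38, Vsir and Cd84 were not called (edgeR adjusted p = 0.075, 0.0851 and 0.0914). Without the limit on myeloid UMIs Cd200r1 was -1.03 and -1.56. Of 16 signalling genes, 5 rose and 0 fell in control tumours and 4 rose and 0 fell in B2m-null tumours. The kinase gene Fyn rose in both, by 1.36 (389 against 157 CPM, edgeR adjusted p = 1.95e-05) and 0.88 (0.00183), the latter not called with the pool as the unit (0.95, 0.108). Fyn was called in neither genotype when cells lacking a hashtag were added to the pools as the unit (1.35, edgeR adjusted p = 0.0511; 0.86, 0.107).

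Of 18 transcription factors of the exhaustion programme, 5 rose and 1 fell in control tumours (median 0.49), and 1 rose and 3 fell in B2m-null tumours (median -0.01). Rbpj, the Notch effector, fell in both genotypes, from 345 to 177 CPM (-0.90, edgeR adjusted p = 0.00236) and from 358 to 94.9 CPM (-1.75, 1.02e-05). Its control call was lost with the pool as the unit (-1.12, 0.0778) and without mouse 2 of control CD40 (-0.63, 0.117). Nr4a3, an early target of antigen receptor signalling, fell in B2m-null tumours from 116 to 27.6 CPM (-1.82, 0.00256). No values are given here for the 5 factors that rose in control tumours or the 1 in B2m-null tumours, so Rbpj and Nr4a3 do not stand for the list. Of 11 tested progenitor genes, 6 rose and 1 fell in control tumours (median 0.93), among them the egress receptor gene S1pr1 (2.93, 85.1 against 11.7 CPM, edgeR adjusted p = 1.90e-05) and the quiescence factor gene Klf2 (1.74, 305 against 96.4 CPM, 0.0020), the latter lost without the lane control isotype replicate 1 (1.71, 0.0559). In B2m-null tumours 1 rose and 1 fell (median -0.27); the one that fell was Ccr7 (-3.32, 24.9 against 264 CPM, 7.05e-04), which is also a marker of mature dendritic cells. The difference of the CD40 effects passed the test for S1pr1 (-1.82, edgeR adjusted p = 0.0342) and the transcription factor gene Foxp1 (-1.24, 0.0481), both smaller in B2m-null tumours, but S1pr1 missed the threshold in 15 and Foxp1 in 26 of the 37 alternatives run, and S1pr1 was -0.67 (0.771) without the lane B2m-null isotype replicate 2. Without barcodes holding a dendritic marker UMI the change of Ccr7 was -1.54 (edgeR adjusted p = 0.05, just over the threshold).

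Of 12 genes of exhausted effector cells, 2 rose and 3 fell in control tumours and 4 rose and 3 fell in B2m-null tumours (medians -0.17 and -0.02). Between genotypes under isotype, where 0.186% of all genes were called, 1 gene was called of the 14, 16, 18, 11 and 12 tested in the 5 lists, the perforin gene Prf1, lower in B2m-null tumours (-2.07, 131 against 513 CPM, edgeR adjusted p = 0.00642). It was not called in limma-voom with a pool correlation (-2.02, adjusted p = 0.0853). Its CD40 effect differed between genotypes (1.39, 0.0476), a call lost in 23 of 37 alternatives. Under CD40, against 1.75% of all genes higher and 1.26% lower, 5 list genes of the 14, 16, 18, 11 and 12 tested were lower in B2m-null tumours, namely Rbpj (-0.88, edgeR adjusted p = 0.0191), Rgs16 (-1.62, 0.0218), Ubash3b (-0.92, 0.0379), Nr4a2 (-1.22, 0.0408) and Nrgn (-1.89, 0.0482), and 0 were higher. None of the 5 was called with the pool as the unit (edgeR adjusted p 0.672 to 0.707), and Ubash3b, Nr4a2 and Nrgn missed the threshold in 15, 15 and 23 of 37 alternatives. Without mouse 1 of control CD40, Rgs16 was -0.99 (0.263), Nrgn -1.03 (0.4) and Rbpj -0.56 (0.315), as log2 change and edgeR adjusted p. Rbpj was also lost without the lane control isotype replicate 1 (-0.88, 0.0611), the lane B2m-null CD40 replicate 2 (-0.64, 0.0651) and mouse 2 of B2m-null CD40 pool 2 (-0.81, 0.0712), and Rgs16 without the lanes control isotype replicate 1 (-1.63, 0.0593), control isotype replicate 2 (-1.59, 0.0513) and B2m-null CD40 replicate 1 (-1.47, 0.075). Rgs16 encodes a regulator of G protein signalling and Ubash3b a phosphatase that damps antigen receptor signals.

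In CD4 T cells the PD-1 gene rose under CD40 in control tumours and did not pass the test in B2m-null tumours. Pdcd1 stood at 81.8, 45.1, 40.6, 27.3 and 43.0 CPM in control isotype mice and 111 and 143 CPM in control CD40 mice, while the 2 mice of B2m-null isotype had 86.0 and 79.3 CPM and the 4 of B2m-null CD40 102, 93.2, 154 and 220.2 CPM. The CD40 mice were higher than the isotype mice of their genotype without overlap. Of 6 tested members, Pdcd1 was the 1 called in control tumours, against 7.32% of 4592 genes (log2 change 1.41, SE 0.344, edgeR adjusted p = 0.0132). In B2m-null tumours 0 of 6 were called, against 5.66% of genes, and Pdcd1 was the 1 with an unadjusted p under 0.05 (log2 change 0.93, SE 0.343, edgeR adjusted p = 0.117). In edgeR an unadjusted p under 0.05 was found for 909 of 4592 genes there. There DESeq2 and limma-voom called 0 as well. In B2m-null tumours Pdcd1 was called with the replicate block (1.05, 0.0497 as log2 change and edgeR adjusted p), with mice of at least 10 cells (1.10, 0.0320), and without the lane B2m-null CD40 replicate 1 (1.22, 0.00579) and mouse 2 of B2m-null CD40 pool 1 (1.07, 0.034). With mice of at least 50 cells, which left 1 mouse in B2m-null isotype, its log2 change was 1.20.

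The value for Pdcd1 in this gate changed with the cells it held. When cells with Il2ra were left out, the stricter gate for CD4 T cells, the log2 change in control tumours was 0.54 (edgeR adjusted p = 0.651). When at least 3 Cd3 UMIs were asked for as well, an alternative chosen after the data had been seen, it was -0.16 (0.956), and without barcodes holding a dendritic marker UMI it was 0.79 (0.551). The 5 regulatory T markers, of which the gate used Foxp3 alone, summed to 1315 to 2245 CPM per mouse in control isotype and 751 to 799 CPM in control CD40, and to 1300.1 to 1490.3 and 586 to 756 CPM in B2m-null tumours. The CD8 T marker Cd8b1 rose in this gate in control tumours, from 12.1 to 89.0 CPM (log2 change 2.74, edgeR adjusted p = 0.00471). The 4 CD8 T markers, of which Cd8a was at 0 and Cd3e and Cd3d were used by the gate, summed to 726 to 993 CPM per mouse in control isotype and 1499 to 1516 CPM in control CD40. Melanoma markers summed to 0 to 32.7 CPM per mouse in control isotype and 12.3 to 1834 CPM in control CD40. In B2m-null tumours they summed to 5.61 to 24.4 CPM under isotype and 0 to 10.4 CPM under CD40. The call was lost in limma-voom with a pool correlation (1.37, adjusted p = 0.0732), with the pool as the unit (1.47, edgeR adjusted p = 0.262) and after thinning (1.27, 0.108). It was also lost without the lane control isotype replicate 2 (1.16, 0.0906) and mouse 2 of control CD40 (1.19, 0.244). The part of regulatory T, CD8 T, dendritic and melanoma transcripts in the result was not tested beyond these fits.

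Lag3 in CD4 T cells stood at 47.4, 28.2, 122, 21.8 and 64.5 CPM in control isotype, 70.7 and 187 CPM in control CD40, 80.4 and 30.5 CPM in B2m-null isotype and 102, 31.1, 32.1 and 43.7 CPM in B2m-null CD40. The groups overlapped, and Lag3 was not called in edgeR (adjusted p = 0.104 in control and 0.677 in B2m-null tumours). In control tumours limma-voom called 2 of 6 members, Pdcd1 and Lag3 (1.57, adjusted p = 0.0403), and DESeq2 Pdcd1 alone. The other 4 tested members, Havcr2, Entpd1, Tox and Btla, had adjusted p between 0.152 and 0.705 in control and between 0.326 and 0.786 in B2m-null tumours. Between genotypes 0 of 6 members were called under isotype (0.196% of genes; 0 with an unadjusted p under 0.05, 0 called by limma-voom, and 0 by DESeq2, which gave 2 of the 6 an adjusted p). Under CD40 edgeR called 0 of 6 (1.31% of genes), with an unadjusted p under 0.05 for Havcr2 and Lag3 (adjusted p = 0.0708 and 0.142), while limma-voom called 2 and DESeq2, which gave an adjusted p for 1 member, called 0. The difference of the CD40 effects was called for 0 of 6 members (0.653% of genes), with 1 at an unadjusted p under 0.05 and 0 called by limma-voom, and DESeq2 gave no adjusted p for the 6. In edgeR, 267, 634 and 554 of 4592 genes had an unadjusted p under 0.05 in these comparisons, in that order. Cd160, Cd244a and Tigit did not pass the filter.

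Other genes of the lists did pass the test in CD4 T cells. Ifng, the interferon-γ gene, rose from 36.9 to 573 CPM in control tumours (3.91, edgeR adjusted p = 1.53e-06) and from 18.7 to 410 CPM in B2m-null tumours (3.96, 3.01e-05). Ikzf2, the Helios gene of regulatory T cells, fell from 692 to 210 CPM (-1.66, 1.16e-04) and from 576 to 100.0 CPM (-2.44, 9.80e-07). The control call of Ikzf2 was lost with the pool as the unit (-1.61, edgeR adjusted p = 0.0608). Sh2d1a, which encodes the adaptor of 2B4 and other SLAM receptors, rose in both (1.53, edgeR adjusted p = 0.00346; 1.52, 0.0057), but not without barcodes holding a dendritic marker UMI (0.92, 0.382; 0.62, 0.641), nor with the pool as the unit (1.53, 0.0971; 1.41, 0.158), under the stricter gate with 3 Cd3 UMIs (1.52, 0.356; 1.00, 0.26) or after thinning (1.55, 0.074; 0.80, 0.256). In B2m-null tumours Sh2d1a was also lost under the stricter gate (0.89, 0.414), without the lane B2m-null CD40 replicate 2 (1.16, 0.0728) and mouse 2 of B2m-null isotype pool 2 (1.23, 0.13), and was 2.35 without mouse 1 of that pool. Of 12 effector genes 4 rose in control tumours and 2 in B2m-null tumours, and 0 fell in either, against 7.32% and 5.66% of all genes called. Under the stricter gate Ifng was 2.75 and 2.55, and with 3 Cd3 UMIs as well it was 2.67 and 2.78, with Ikzf2 at -1.80 in B2m-null tumours. One of the 2 B2m-null isotype mice held no Ifng, and without the other the fitted value was 9.98, which is no bound.

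**Figure D4:**
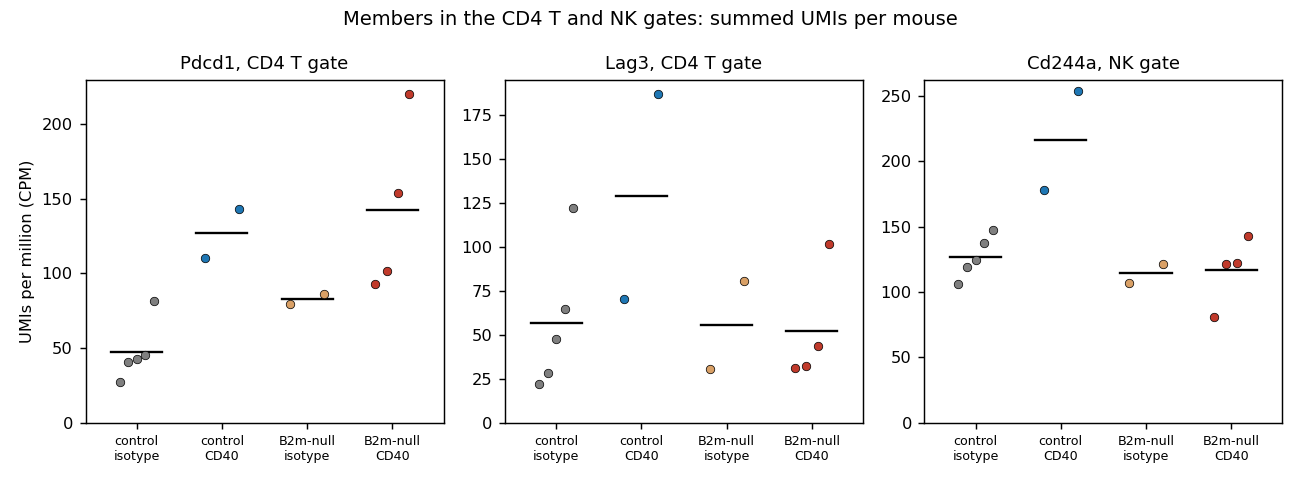
Levels in counts per 1000000 UMIs (CPM, linear axis from 0) of Pdcd1 and Lag3 in CD4 T gate cells and of Cd244a in NK gate cells, by group; each dot is 1 mouse and each line the group mean. Pdcd1 in CD4 T cells is higher in both control CD40 mice than in the 5 control isotype mice, while Lag3 overlaps.

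In regulatory T cells no member was called, but the CD40 arm was 1 mouse. Enough cells were found in 5 mice of control isotype, 3 of B2m-null isotype and 1 of B2m-null CD40, and none in control CD40. Pdcd1 stood at 24.4, 32.7, 53.2, 44.6 and 51.9 CPM in control isotype and 57.3, 50.1 and 71.8 CPM in B2m-null isotype. The single mouse of B2m-null CD40 had 64.7 CPM. Havcr2 stood at 36.6, 49.0, 82.2, 115 and 62.8 CPM, 80.3, 74.0 and 56.9 CPM and 25.9 CPM in that order, with the CD40 mouse lowest. Lag3 stood at 52.9, 65.4, 62.8, 76.5 and 35.5 CPM, 22.9, 68.0 and 34.6 CPM and 51.7 CPM. In B2m-null tumours 0 of 6 tested members were called under CD40 (3.17% of 6093 genes), in a fit that assumes the lone CD40 mouse to vary like the other groups and so shows little about its arm, and between genotypes under isotype 0 of 6 (0.115%). Both comparisons had 0 members with an unadjusted p under 0.05 in edgeR and 0 called by limma-voom, and edgeR's adjusted p ranged from 0.383 to 0.974 and from 0.841 to 1. DESeq2 called 0 in the first and gave no adjusted p for the members in the second. The 27 regulatory T cells of the control CD40 pool, with 68741 UMIs, held 4 UMIs of Pdcd1, 5 of Havcr2, 6 of Lag3, 8 of Tox and 3 of Entpd1. Tigit and Cd244a were at 0 there, which allows up to 43.6 CPM (3 counts, counting error only).

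In NK cells Cd160, Cd244a and Tox passed the filter. Cd244a, an NK receptor gene, stood at 125, 138, 147, 106 and 119 CPM in control isotype and 254 and 178 CPM in control CD40. B2m-null mice had 121 and 107 CPM under isotype and 81.0, 122, 123 and 143 CPM under CD40. Both control CD40 mice were above all other mice, but the increase in control tumours missed the threshold (log2 change 0.85, SE 0.2498, edgeR adjusted p = 0.0679). Cd160 stood at 60.8, 17.7, 28.3, 27.4 and 16.1 CPM in control isotype, 25.4 and 14.3 CPM in control CD40, 50.8 and 31.5 CPM in B2m-null isotype and 37.4, 81.1, 99.2 and 75.6 CPM in B2m-null CD40. As in CD8 T cells its highest mean was in B2m-null CD40, but values overlapped with isotype and no comparison called it. Tox ranged over 27.4 to 78.2, 50.8 to 71.3, 50.4 to 50.8 and 0 to 70.0 CPM in the same order. The quasi-likelihood test of edgeR called 0 of the 3 members in each of the 5 comparisons, where 3.06, 0.388, 0.0971, 0.728 and 0.631% of 4120 genes were called. The comparisons were CD40 in control, CD40 in B2m-null, genotype under isotype, genotype under CD40 and the difference of the CD40 effects. The members with an unadjusted p under 0.05 numbered 1, 0, 0, 2 and 0 in edgeR, against 731, 528, 197, 526 and 503 of 4120 genes. limma-voom called 0 in each, and DESeq2 called 0 in the first, where it gave 1 of the 3 an adjusted p, and gave none an adjusted p in the others. In this gate the 4 monocyte markers summed to 557 to 866 CPM per mouse in control isotype and 1134 to 1485 CPM in control CD40, without overlap, and 739 to 782 against 735 to 1226 CPM in B2m-null tumours. Of them Ly6c2 was called higher in both genotypes, from 152 to 594 CPM in control and from 97.7 to 330 CPM in B2m-null tumours. Melanoma markers summed to 11.3 to 4268 CPM in control isotype, with a median of 647 CPM, and 6.35 to 7.13 CPM in control CD40, and cDC1 markers to 78.7 to 674 against 25.4 to 42.8 CPM. The part of these transcripts in the NK values was not tested. Among list genes, the inhibitory receptor gene Klrg1 rose in NK cells of both genotypes, from 29.9 to 188 CPM (2.69, edgeR adjusted p = 8.66e-04) and from 33.1 to 238 CPM (2.78, 0.0104), and Prf1 rose by 0.84 (0.0425) and 1.21 (0.0292), calls that were lost in 17 and 15 of 35 alternatives. The Klrg1 call was lost in control tumours after thinning (1.79, 0.103) and without the lane control isotype replicate 1 (2.54, 0.0612) or mouse 1 of control CD40 (2.07, 0.118), and in B2m-null tumours without the limit on myeloid UMIs (2.71, 0.0964) and without mouse 1 or mouse 2 of B2m-null isotype pool 2 (3.28, 0.253; 2.62, 0.305).

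Across the 4 gates the members had different orders of level. Each pair of neighbouring gates was compared within mice by a two-sided exact permutation test (sign flips), 27 pairs in all with adjusted p over them, and 7 passed. Over all mice, which pool the treatments, Pdcd1 was highest in CD8 T, then CD4 T, regulatory T and NK cells; the last step passed the test (49.2 against 3.82 CPM, 8 of 8 mice, adjusted exact permutation p = 0.0301) and the first 2 did not. Under CD40 the means of Pdcd1 were higher in CD4 T than in CD8 T cells, at 127 against 104 CPM in control and 142 against 82.6 CPM in B2m-null tumours, and under isotype they were lower (47.6 against 200.2 and 82.7 against 142 CPM). Havcr2 was higher in CD8 T than in regulatory T cells (136.7 against 64.7 CPM, 8 of 9 mice, exact permutation p adjusted 0.0301) and higher in CD4 T than in NK cells (55.7 against 14.0 CPM, 13 of 13, 0.0022). Lag3 was higher in regulatory T than in NK cells (55.9 against 16.8 CPM, 8 of 8 mice, 0.0301). Its CD8 T, CD4 T and regulatory T levels were not separated, and CD4 T cells held 53.4 CPM against 55.9 CPM in regulatory T cells of the same 8 mice. Tox was higher in CD8 T than in CD4 T cells (185.9 against 88.5 CPM, 12 of 13 mice, 0.0033).

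The receptors shared with NK cells had other orders. Cd244a was higher in NK than in CD8 T cells (135.7 against 26.96 CPM, 13 of 13 mice, adjusted exact permutation p = 0.0022), which were followed by regulatory T and CD4 T cells. In isotype mice alone the last 2 stood the other way, at 21.0 CPM in regulatory T and 23.2 CPM in CD4 T cells (7 mice). Cd160 was led by CD8 T and NK cells, which were not separated, and NK cells were above CD4 T cells (43.5 against 11.5 CPM, 13 of 13 mice, 0.0022). Entpd1 and Tigit were highest in regulatory T cells and Btla in CD4 T cells, and no neighbouring pair of these 3 genes passed. These orders are of means over all mice used, whose treatments differ by gate. Within mice Entpd1 was higher in regulatory T than in CD8 T cells in 4 of 9. The smallest exact p is 0.000244 with 13 mice, 0.00391 with 9 and 0.00781 with 8.

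Outside these gates several members were found in myeloid and B cells. As a median over lanes, Btla stood at 161 CPM (range 70.8 to 246) in cDC1 and 122 CPM (39.0 to 252) in B cells. Lag3 stood at 168 CPM (139 to 222) in plasmacytoid dendritic cells. Entpd1 stood at 178 CPM (132 to 439) in neutrophils and 90.2 CPM (54.7 to 120) in macrophages, and Cd244a at 82.2 CPM in cDC2 and 60.2 CPM in monocytes. These levels are descriptions of gates that were made from the marker lists, and a gate is not a sorted population. Tigit was under 1 CPM in the median lane of every one of these other gates.

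**Figure D5:**
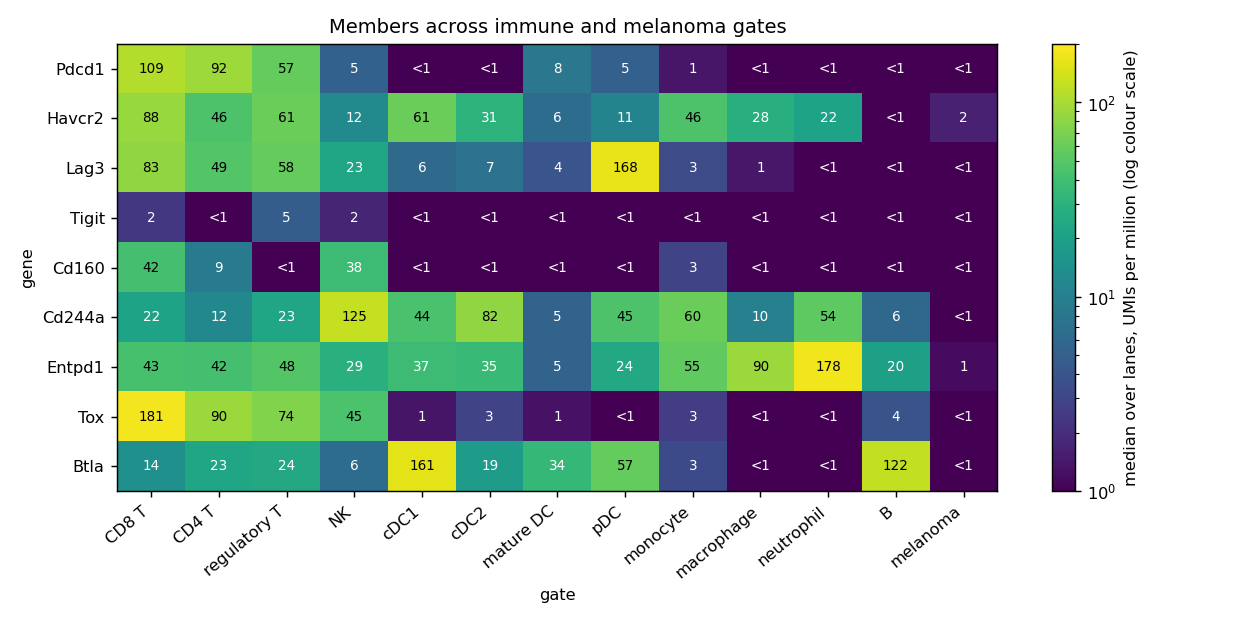
Heat map of the 9 members (rows) in 13 gates (columns); the colour is the median CPM over lanes on a log scale. Pdcd1 and Tox are highest in the T cell gates, Btla in cDC1 and B cells, and Entpd1 in neutrophils.

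Genes whose level across 28 sums of pool and gate was most like each member were ranked by Pearson's r of log2(CPM + 1) among 6302 genes, as a description without a test, since sums of 1 pool share a lane. Bcl11b (r = 0.908) and Cd3g (0.904) came closest to Pdcd1, Nrn1 (0.800) and Arl6ip1 (0.798) to Havcr2, and Fam169b (0.804) and Nrn1 (0.791) to Lag3. The T gates required Cd3 UMIs and the NK gate excluded them, so the r of Cd3g was in part set by the gates. For Cd160 these were Klrc1 (0.876) and Ms4a4b (0.859), for Cd244a Klre1 and Mgat5 (0.882 for both), for Btla Pmaip1 (0.875) and Dpp4 (0.853), and for Tox Cd8b1 (0.823) and Tuba4a (0.766). Entpd1 was nearest to Neb (0.735) and Ikzf4 (0.727), and Tigit to Ndufa10 (0.686) and BC028528 (0.653).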

How the data were processed

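Counts of UMIs per gene and barcode were deposited by the authors for 8 lanes, with hashtag counts in the same files, per the file headers. Cell Ranger 3.0.0, bcl2fastq 2.20.0.422 and mm10 are named in the submitters' processing notes, and the sources used here give no further steps. Barcodes were kept with 200 or more genes and no more than 10% mitochondrial UMIs. Hashtags were assigned by a Gaussian mixture at a posterior of 0.9, and barcodes with 2 hashtags were removed as doublets; doublets within 1 mouse cannot be marked this way. A hashtag within a pool was taken as 1 mouse.

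Gated barcodes had at most 0.5% of UMIs from 6 myeloid genes (C1qa, C1qb, C1qc, Lyz2, Csf1r and Cd68). T gates required 2 Cd3 UMIs. UMIs were summed per mouse and gate for mice with at least 20 gated cells, and all 4 groups entered 1 fit per gate in edgeR 4.0.16 (TMM scaling, filterByExpr, robust quasi-likelihood test), with Benjamini-Hochberg adjustment over all genes tested. p-values measure the spread between mice, and mice of 1 pool share a lane. The fit was also run on simulated counts without pool or lane effects, which shows nothing about its error rate where mice share a pool. Shares of cells used barcodes thinned to 1500 UMIs. Alternatives were DESeq2 1.42.0, limma 3.58.1 (voom), other scalings, filters and gates, the pool as the unit, the replicate number as a block, and leaving out lanes and mice. Leaving out barcodes with a dendritic marker UMI, and stricter CD4 T and regulatory T gates with 3 Cd3 UMIs, were added after the data had been seen.

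The 9 members and the gene lists were chosen with earlier results of these data known. Named genes were the members in every gate and comparison, at most 12 called list or marker genes per gate and comparison, and the 2 genes most similar to each member.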

Additional observations from a re-analysis of the deposited data

Results flagged for a closer look

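In 71 groups of 4 or 5 mice, each for 1 member in 1 gate, examined for a mouse far from the others, 3 held one, and chance alone flags about 1 in 20 such groups. Btla in the CD8 T gate stood at 24.8 CPM in mouse 2 of control isotype pool 1, above the other 4 mice of its group. Cd160 in the NK gate stood at 60.8 CPM in mouse 1 of control isotype pool 1. Havcr2 in the CD4 T gate stood at 67.7 CPM in mouse 1 of B2m-null CD40 pool 1, which rests on 20 cells. The change of Cd160 under CD40 in CD8 T cells differed between the tumour genotypes by 1.23 on the log2 scale (edgeR adjusted p = 0.0284), and all 4 B2m-null CD40 mice were above the B2m-null isotype mice.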

How the results depend on the processing

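The counts of genes called at an edgeR adjusted p under 0.05 are given by gate for 5 comparisons: the first is CD40 against isotype in control tumours, the second the same in B2m-null tumours, the third B2m-null against control tumours under isotype, the fourth the same under CD40, and the fifth the difference of the CD40 effects. They were 2585, 1073, 20, 323 and 541 in the CD8 T gate, 336, 260, 9, 60 and 30 in the CD4 T gate, 193 and 7 in the regulatory T gate (the second and the third), and 126, 16, 4, 30 and 26 in the NK gate. Counts that moved by over 1.5 times were as follows. With DESeq2, the counts were CD8 T 157 (the third), 643 (the fourth), 880 (the fifth), CD4 T 63 (the fifth), regulatory T 97 (the second), NK 36 (the second), 11 (the third). With limma-voom, the counts were CD8 T 3917 (the first), 8 (the third), 1100 (the fourth), CD4 T 486 (the second), 197 (the fourth), 68 (the fifth), regulatory T 0 (the third), NK 10 (the second), 10 (the third), 18 (the fourth). With limma-voom and a pool correlation, the counts were CD8 T 488 (the second), 0 (the third), 541 (the fourth), 234 (the fifth), CD4 T 1 (the third), 138 (the fourth), NK 3 (the second), 10 (the third), 17 (the fourth), 17 (the fifth). Without the filter on low counts, the counts were CD8 T 511 (the third), 633 (the fourth), 904 (the fifth), CD4 T 468 (the second), 20 (the third), 198 (the fourth), 77 (the fifth), regulatory T 321 (the second), 42 (the third), NK 221 (the first), 100 (the second), 34 (the third), 50 (the fourth), 45 (the fifth). With the pool as the unit, the counts were CD8 T 93 (the first), 105 (the second), 6 (the third), 3 (the fourth), 0 (the fifth), CD4 T 74 (the first), 79 (the second), 2 (the third), 20 (the fourth), 0 (the fifth), regulatory T 105 (the second), 3 (the third), NK 9 (the first), 10 (the second), 2 (the third), 3 (the fourth), 0 (the fifth). With the pool as the unit and cells lacking a hashtag, the counts were CD8 T 87 (the first), 129 (the second), 5 (the third), 3 (the fourth), 0 (the fifth), CD4 T 80 (the first), 0 (the third), 14 (the fourth), 2 (the fifth), regulatory T 19 (the third), NK 7 (the first), 0 (the third), 0 (the fourth), 0 (the fifth). With at least 10 cells per mouse, the counts were CD4 T 442 (the second), 4 (the third), regulatory T 121 (the second), NK 32 (the second), 1 (the third). With at least 50 cells per mouse, the counts were CD8 T 2 (the third), CD4 T 794 (the second), 606 (the fourth), regulatory T 30 (the third), NK 7 (the second), 5 (the fourth), 12 (the fifth). Without the myeloid limit, the counts were CD8 T 42 (the third), CD4 T 26 (the fourth), NK 0 (the second), 17 (the fifth). With myeloid UMIs at most 0.2%, the counts were CD4 T 3 (the third), regulatory T 14 (the third), NK 17 (the fifth). With stricter gates, the counts were CD8 T 535 (the second), 2 (the third), 222 (the fifth), CD4 T 119 (the first), 56 (the second), 2 (the third), 5 (the fifth), regulatory T 25 (the third), NK 6 (the second), 16 (the fourth), 16 (the fifth). With stricter gates and 3 Cd3 UMIs, the counts were CD4 T 28 (the first), 77 (the second), 0 (the third), 18 (the fourth), 0 (the fifth), regulatory T 32 (the third). Thinned to 1500 UMIs, the counts were CD8 T 1446 (the first), 290 (the second), 10 (the third), 317 (the fifth), CD4 T 96 (the first), 132 (the second), 0 (the third), 17 (the fifth), regulatory T 82 (the second), 17 (the third), NK 62 (the first), 32 (the second). Without cells holding a dendritic marker UMI, the counts were CD8 T 417 (the second), 611 (the fourth), CD4 T 63 (the first), 20 (the second), 0 (the third), 29 (the fourth), 7 (the fifth), regulatory T 77 (the second), 0 (the third), NK 63 (the first), 2 (the third), 15 (the fourth). With the replicate block, the counts were CD8 T 81 (the third), CD4 T 393 (the second), 0 (the third), NK 2 (the second), 0 (the third). Scaling by the RLE method moved no count by over 1.5 times. Leaving out 1 lane or 1 mouse at a time gave counts of CD8 T 608 to 3390 (the first), 332 to 2120 (the second), 1 to 276 (the third), 15 to 783 (the fourth), 10 to 1094 (the fifth), CD4 T 65 to 628 (the first), 84 to 650 (the second), 0 to 12 (the third), 9 to 242 (the fourth), 9 to 182 (the fifth), regulatory T 0 to 53 (the third), NK 34 to 174 (the first), 0 to 42 (the second), 0 to 8 (the third), 2 to 40 (the fourth), 9 to 39 (the fifth). The cause of these differences was not tested, beyond the fewer samples in the fits by pool and the fewer cells in those with stricter gates.

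For the members, the 17 reversals of sign outside the fits that left out samples were of values not called in edgeR, except Pdcd1 in the CD4 T gate in control tumours (1.41, edgeR adjusted p = 0.0132), and none of the reversed values was called. Without barcodes holding a dendritic marker UMI, Btla was 0.22 in control and 0.28 in B2m-null tumours, and Lag3 -0.26 in both, as log2 changes in CD8 T cells. With the pool as the unit Cd160 was -0.052 and Lag3 -0.17 in control tumours. With cells lacking a hashtag added to the pools, Cd160 was -0.065 and Lag3 -0.17 in control tumours, and Lag3 -0.025 and Tox 0.025 in B2m-null tumours. After thinning, Lag3 was -0.20 in control and -0.18 in B2m-null tumours. In B2m-null tumours Lag3 was -0.0048 with at least 50 cells per mouse, -0.035 without the myeloid limit and -0.16 with myeloid UMIs at most 0.2%, and in control tumours it was -0.0055 in limma-voom with a pool correlation. Pdcd1 in the CD4 T gate was -0.16 in control tumours under stricter gates with 3 Cd3 UMIs. Leaving out 1 lane or mouse gave Cd160 a range of -0.17 to 0.36 and Lag3 -0.20 to 0.32 in control tumours, Lag3 -0.27 to 0.32 and Tox -0.42 to 0.14 in B2m-null tumours, and Tox -0.24 to 0.016 in control tumours. The cause of the reversals was not tested. Of 32 named changes of list genes, 0 reversed and 8 were called in every alternative run.

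Of the neighbouring gate pairs, 7 passed over all mice, 8 on log2 values and 0 in isotype mice alone, which shows nothing about stability. Of the 27 pairs 23 then hold 7 mice, whose smallest exact permutation p is 0.0156. The 7 of these pairs at that p had an adjusted p of 0.0527. Havcr2 in CD8 T over regulatory T cells, with 8 mice and a smallest possible p of 0.0078, had the same exact permutation p and adjusted p. The replicate numbers of the labels were not shown to pair the pools, since the correlation of deviations in the CD8 T gate was -0.0346 between control isotype and B2m-null isotype, 0.226 between control isotype and B2m-null CD40, and 0.327 between the B2m-null groups. With the replicate block, 1569 genes were called in CD8 T cells for the second comparison and 81 for the third; in CD4 T cells 393 and 0, and in NK cells 2 and 0. No block could be fitted for comparisons with control CD40, whose 2 lanes are technical replicates of 1 pool. Fits with at least 50 cells per mouse were not run where they left a group empty (CD4 T, the first, the third and the fifth, and regulatory T, the second), nor were the stricter gates for regulatory T, the second. Tigit in all gates, and 3 to 6 members in the CD4 T, regulatory T and NK gates, did not pass the filter on low counts, and whether depth or a low level set this was not tested.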
